A study of Arabidopsis thaliana with 9 samples.

Results

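The plant U-box (PUB) ubiquitin ligases of Arabidopsis thaliana were followed through cold treatment in a whole-transcriptome data set. Members were all genes whose deposited gene name begins with PUB and a digit, which gave 50 of the 25320 genes in the table. The rule used names and no measured value, but the family was chosen with earlier results of these data known. In the deposited Pfam annotation, 45 members carry U-box as their domain name. PUB32, PUB33 and PUB35 are listed under a protein kinase domain, PUB1 under the core of the Ufd2 elongation factor and PUB63 under Rtf2. A further 5 genes with a U-box Pfam name fall outside the naming rule, namely CHIP and 4 genes listed by locus identifier that are described as U-box proteins 4, 7, 42 and 55.

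U-box proteins are E3 ubiquitin ligases. They hold a ubiquitin-charged E2 enzyme through the U-box, a fold resembling a RING finger but formed without zinc, and pass the ubiquitin to a substrate protein, which is often then degraded by the 26S proteasome. Many plant members add armadillo repeats that bind substrates, and others add a kinase domain. In leaves the family is best known for restraining immune and drought signalling, and PUB25 and PUB26 for promoting freezing tolerance by marking the transcriptional repressor MYB15 for degradation.

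RNA was sequenced from stems and leaves of wild-type (WT) seedlings, 2 weeks old and grown in soil. The 3 groups held 3 libraries each: control plants at day 0, labelled as kept at room temperature or taken before stress, plants given cold acclimation once (day 1, "cold once" here) and plants given it 4 times (day 4, "repeated cold"). Each cycle consisted of 6 h at 4 °C followed by 18 h at room temperature, and a further 6 h at 0 °C came after the cycles; the labels do not state on which side of that step the plants were sampled. Day, plant age and the number of cycles change together across the groups and cannot be told apart. All plants were of 1 genotype, no mutant was included, and the origin of the replicates is not stated, so p-values measure only the spread between these samples, which may be technical. Levels are FPKM, in which fragment counts are divided by gene length and by library size, a unit that allows comparison between genes per length. In bulk tissue, fewer cells of a type and less RNA per cell cannot be told apart.

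Library depth, read from the steps on which the FPKM values fall, was 17.98 to 21.49 M reads. The 41 members that reached 1 FPKM in 3 or more libraries were tested, and had between 16 and 12782 reads in a library. The 9 members below that limit (PUB15, PUB21, PUB35, PUB36, PUB43, PUB46, PUB47, PUB48 and PUB57) had at most 71 reads in any library, and changes in them were not tested. Leaf markers were abundant in every library, and none of the 8 was at 0. Their summed level was 24330 to 28140 FPKM in control, 35060 to 40570 in cold once and 34000 to 40410 in repeated cold. The sum hides both directions: by the test used below, 5 of the 8 rose and 2 fell in each comparison with control. Floral markers (7 genes, none at 0 throughout a group) summed to 9.43 to 42.5 FPKM in control and 1.81 to 7.70 in cold once. In repeated cold they summed to 0.974 to 28.7 FPKM, with a median of 1.39. Every control library thus had a higher floral sum than every cold-once library, and so had 1 repeated-cold library. Floral RNA and cold once therefore differ together between these groups. Root, pollen and anther, and seed markers summed to at most 83.6, 31.8 and 0.909 FPKM in any library. The part of these shifts in the results below was not tested for leaf markers, and calls lost when the floral score entered the model as a covariate are named beside the gene.

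The stretches that precede 4 members are shown because these genes form 2 homologous pairs, of which PUB19 rose most, PUB18 did not pass the test, and PUB25 and PUB26 both fell. Each is the 300 bases upstream of the annotated gene start, read 5′ to 3′ on the gene's strand from the TAIR10.1 genome. Capitals mark every match, on either strand, to CCGAC (the core that CBF cold regulators bind), ACGTG (the core of abscisic acid response elements), AAAATATCT (the evening element), the CAMTA core in its forms ACGCGG or ACGCGT or CCGCGG or CCGCGT, and TTGAC (the core bound by WRKY factors). On the opposite strand CCGAC reads GTCGG, while ACGTG reads CACGT and TTGAC reads GTCAA.
PUB19, chr1:22197966-22198265, plus strand: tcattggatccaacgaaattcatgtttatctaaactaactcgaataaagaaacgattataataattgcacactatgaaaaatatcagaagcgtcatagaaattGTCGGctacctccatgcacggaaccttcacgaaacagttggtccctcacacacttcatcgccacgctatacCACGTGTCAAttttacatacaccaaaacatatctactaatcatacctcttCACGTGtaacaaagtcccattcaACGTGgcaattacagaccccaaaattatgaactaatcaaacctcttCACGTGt
PUB18, chr1:3484099-3484398, plus strand: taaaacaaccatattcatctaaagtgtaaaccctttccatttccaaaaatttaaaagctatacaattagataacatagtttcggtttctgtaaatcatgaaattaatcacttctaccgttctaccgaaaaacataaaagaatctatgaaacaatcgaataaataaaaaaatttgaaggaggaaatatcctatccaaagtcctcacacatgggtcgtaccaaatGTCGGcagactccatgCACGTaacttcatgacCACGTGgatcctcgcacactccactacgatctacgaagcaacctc
PUB25, chr3:6716179-6716478, minus strand: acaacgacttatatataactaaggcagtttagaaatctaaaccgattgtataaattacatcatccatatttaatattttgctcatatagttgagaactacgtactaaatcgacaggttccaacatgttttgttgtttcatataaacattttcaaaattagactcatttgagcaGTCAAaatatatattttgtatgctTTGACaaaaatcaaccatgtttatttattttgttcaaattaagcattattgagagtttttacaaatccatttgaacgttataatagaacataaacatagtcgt
PUB26, chr1:18430498-18430797, minus strand: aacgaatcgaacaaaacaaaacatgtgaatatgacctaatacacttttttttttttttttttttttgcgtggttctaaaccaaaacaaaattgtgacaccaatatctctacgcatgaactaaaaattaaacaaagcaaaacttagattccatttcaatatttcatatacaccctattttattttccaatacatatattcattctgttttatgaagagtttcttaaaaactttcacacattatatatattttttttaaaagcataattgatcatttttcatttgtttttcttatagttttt
In the PUB19 window ACGTG occurs at 4 separate places, mostly as the palindrome CACGTG, and at 1 of them it shares a base with a TTGAC match. At least 4 such places were found in 75 of 25098 windows of the genome (0.299%), and in 1 member, PUB19. That limit is the count in PUB19 itself, a gene shown because it rose most, so the share is a description only. The PUB18 window holds ACGTG at 2 places and CCGAC once, and the PUB19 window also holds CCGAC once. The PUB25 window holds TTGAC only, at 2 places, and the PUB26 window holds none of these letters. Over the family, ACGTG was present in 16 of 50 windows (32%, against 25.8% of all windows), CCGAC in 10 (20%, against 14.2%) and TTGAC in 36 (72%, against 50.2%). AAAATATCT was present in 0 of 50 windows (2.81% of all) and the CAMTA core in 1 (2%, against 4.61%). A match is only a match of letters; in 10 members the window also overlaps another annotated gene.

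Before cold, transcript levels in the family spanned from genes with almost no reads to PUB9, a ligase linked to abscisic acid responses, at 39.7 ± 1.21 FPKM (mean ± SD, n = 3 in every group). PUB13 followed at 31.2 ± 3.07 FPKM and PUB17, a ligase known from defence and cell death, at 27.4 ± 2.77 FPKM. The ranges of PUB13 and PUB17 overlapped, with 29.3 FPKM as the lowest PUB13 value and 30.1 FPKM as the highest of PUB17. PUB1, which acts as an E4 factor that extends ubiquitin chains, stood at 18.2 ± 3.50 FPKM and PUB39 at 15.4 ± 0.466 FPKM, and these overlapped too. The neighbouring genes PUB46, PUB47 and PUB48 on chromosome 5, of which PUB46 and PUB48 are known from drought responses, stayed at or under 0.813 FPKM in every library.

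Cold once moved many members in both directions. Of the 41 members tested with limma, 26 were called at an adjusted p under 0.05 (63.4%), with 9 higher and 17 lower. Over all 17740 genes tested the share called was 52.3%, with 18.7% higher and 33.6% lower, and whether the members' share exceeds that background was not tested. The libraries of the 2 groups did not overlap in 28 of the 41, beside 64.6% of all genes tested. The median log2 change was -0.19 over members and -0.16 over all genes. The members that rose were PUB9, PUB11, PUB19, PUB20, PUB22, PUB23, PUB30, PUB31 and PUB45. Those that fell were PUB3, PUB8, PUB10, PUB12, PUB14, PUB16, PUB24, PUB25, PUB26, PUB29, PUB33, PUB38, PUB40, PUB41, PUB56, PUB62 and PUB63. The balance of directions depended on scaling: with median-of-ratios scaling, which moved the all-gene median to -0.01, the calls were 11 up and 14 down (all genes 25.6% and 25.0%), and under quantile normalization 11 up and 13 down (all genes 25.1% and 25.0%). No called member changed its direction under any of the 20 alternatives.

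After repeated cold, 20 of 41 members were called against control (48.8%), 9 higher and 11 lower, beside 39.5% of all genes, 14.6% higher and 24.9% lower. Libraries did not overlap in 24 of the 41, beside 50.7% of all genes tested. The median log2 change was -0.07 over members and -0.10 over all genes. The 9 that rose were PUB11, PUB19, PUB20, PUB22, PUB23, PUB27, PUB31, PUB44 and PUB54, and the 11 that fell were PUB8, PUB10, PUB16, PUB25, PUB26, PUB29, PUB33, PUB38, PUB40, PUB41 and PUB63. Median-of-ratios scaling gave 10 higher and 8 lower (all genes 19.6% and 18.9%), and quantile normalization 12 higher and 8 lower (all genes 18.9% and 20.3%). Without control replicate 3 the count was 13, with 6 higher and 7 lower, and over all genes 5237 of 17480 were then called. Both comparisons used the same 3 control libraries, so their values are given side by side and are not independent. The F-test over the 3 groups called 26 of 41 members, beside 49.4% of all genes.

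**Figure D1:**
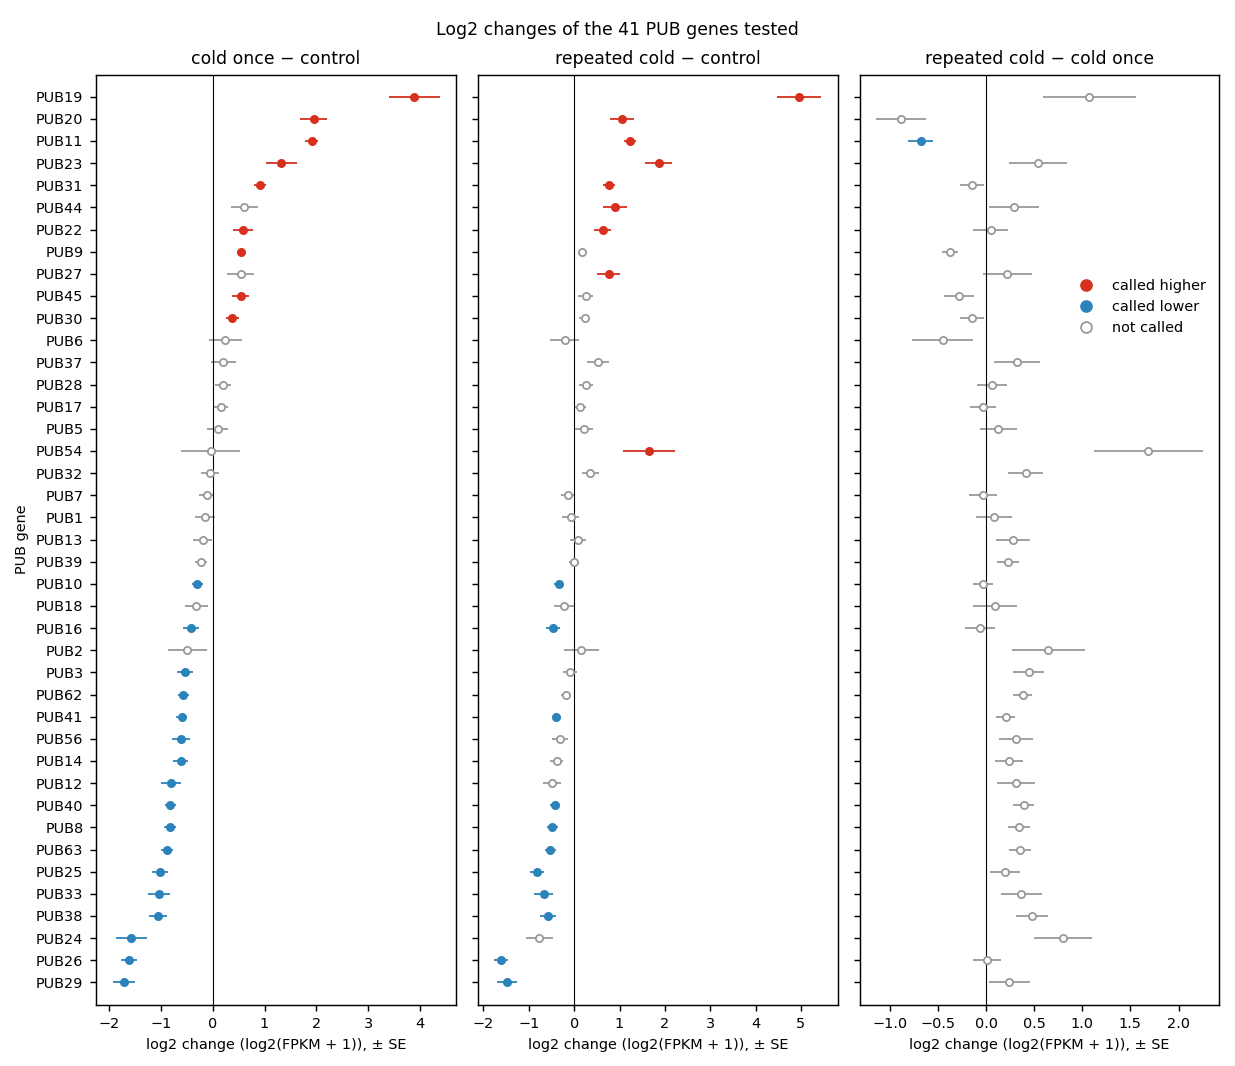
Log2 change (points) and standard error (bars) on the log2(FPKM + 1) scale for the 41 tested PUB genes in the 3 comparisons, each panel with its own horizontal scale; red and blue points passed limma's test in the higher and lower direction and open points did not. PUB19 lies farthest to the right in both comparisons with control, PUB29 and PUB26 farthest to the left, and PUB11 is the 1 filled point when repeated cold is set against cold once.

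PUB19 (AT1G60190, chr1:22198266-22200687, plus strand) showed the largest change in the family. It is a negative regulator of abscisic acid and drought responses, as is its close homolog PUB18. PUB19 gave 7.61, 2.74 and 10.2 FPKM in the 3 controls, 50.7, 156 and 144 after cold once, and at 288, 184 and 203 after repeated cold. The groups did not overlap: cold once replicate 1 was well below the other libraries of its group, and still above every control. Mean levels were 17.0-fold above control after cold once (log2 change 3.89 ± 0.49 SE, adjusted p = 2.10e-04, limma) and 32.9-fold after repeated cold (4.96 ± 0.49, adjusted p = 9.20e-05). The step from cold once to repeated cold, 1.07 ± 0.49 on the log2 scale, did not pass the test (adjusted p = 0.262) although the ranges were separate.

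PUB18 (AT1G10560, chr1:3484399-3486965, plus strand) gave 3.43, 1.46 and 1.84 FPKM in control, 1.24, 1.56 and 1.80 after cold once and 2.17, 1.71 and 1.26 after repeated cold. Its groups overlapped, and its log2 changes of -0.32 ± 0.22 (adjusted p = 0.264) and -0.22 ± 0.22 (adjusted p = 0.456) did not pass limma's test. Whether the responses of PUB18 and PUB19 differ was not tested as such. PUB18 rested on 64 to 189 reads in a library and PUB19 on 133 to 12782. No 50-base stretch of either gene's exons occurs elsewhere in the genome.

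The rise of PUB19 reshaped the summed level of the family. The 50 members together reached 390 ± 10.07 FPKM in control, 505 ± 56.7 after cold once and 629 ± 100 after repeated cold. PUB19 made up 1.74 ± 0.952% of that sum in control, 22.5 ± 9.96% after cold once and 35.4 ± 3.03% after repeated cold. Without PUB19 the sums were 383 ± 7.86, 388 ± 31.4 and 404 ± 46.0 FPKM, differences no larger than the spread within the cold groups. The most abundant member was PUB9 in all 3 control libraries and in cold once replicate 1, and PUB19 in the other 5 libraries.

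**Figure D2:**
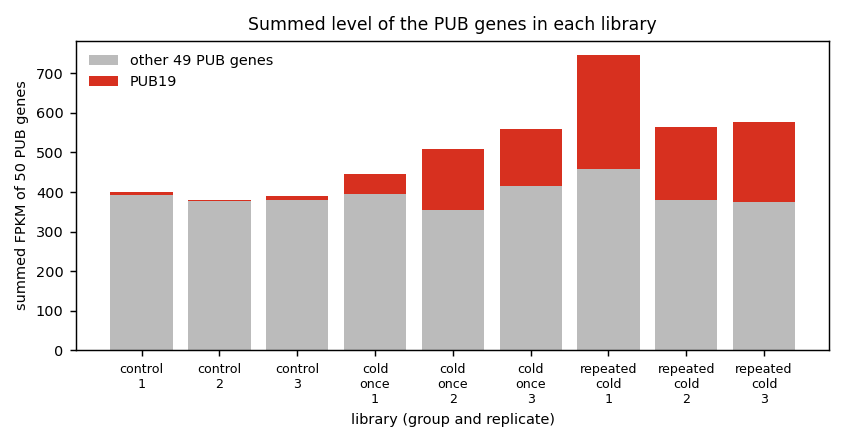
Summed FPKM of the 50 PUB genes in each library, with PUB19 in red and the other 49 in grey. The red part grows from a mean of 1.74% of the bar in control to 22.5% after cold once and 35.4% after repeated cold. The group means of the grey part stay near the control mean of 383 FPKM. Single libraries run from 354 FPKM in cold once replicate 2 to 457 FPKM in repeated cold replicate 1.

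PUB11 (AT1G23030, chr1:8156504-8159185, plus strand) rose in both comparisons with control. This armadillo-type ligase is known as a negative regulator of drought responses that targets receptor-like kinases. PUB11 stood at 7.09, 8.11 and 6.98 FPKM in control, 34.4, 25.5 and 32.2 after cold once, and 17.1, 20.9 and 18.0 after repeated cold. All 3 groups were apart, with repeated cold in between. The log2 change against control was 1.91 ± 0.13 after cold once (adjusted p = 8.25e-06, limma) and 1.23 ± 0.13 after repeated cold (adjusted p = 1.50e-04).

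PUB20 (AT1G66160, chr1:24637196-24638608, plus strand), which the annotation also names CMPG1 and which belongs to a group of ligases induced during defence, had the same order of means. Its values were 4.18, 5.72 and 7.86 FPKM in control, 20.7, 25.5 and 29.8 after cold once, and 15.4, 16.5 and 8.79 after repeated cold. Repeated cold replicate 3 came close to the highest control library without overlapping it. The changes were 1.95 ± 0.26 (adjusted p = 2.96e-04) and 1.06 ± 0.26 (adjusted p = 0.0107, limma) on the log2 scale.

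PUB31 (AT5G65920, chr5:26363709-26366065, minus strand), 1 of a pair with PUB30 that is known from salt tolerance, rose from 3.36, 3.62 and 3.65 FPKM to 8.83, 6.38 and 7.59 after cold once and 6.89, 7.29 and 6.02 after repeated cold. Neither cold group overlapped the control. The log2 changes were 0.91 ± 0.12 (adjusted p = 3.35e-04) and 0.77 ± 0.12 (adjusted p = 0.00141, limma). PUB30 was at 6.64 ± 0.482, 8.97 ± 1.59 and 7.94 ± 0.0969 FPKM; its change of 0.37 ± 0.12 passed after cold once (adjusted p = 0.0303) and 0.23 ± 0.12 after repeated cold did not (adjusted p = 0.172). The call for PUB30 was lost without any 1 of the 3 control libraries (adjusted p = 0.102, 0.0551 and 0.0539) or on leaving out library 2 or 3 of cold once (adjusted p = 0.107 and 0.0810).

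PUB22, PUB23 and PUB24 act together as negative regulators of pattern-triggered immunity, and PUB22 and PUB23 also of drought responses. In these libraries the 3 genes did not move alike. PUB23 (AT2G35930, chr2:15082855-15084559, minus strand) was at 2.78, 3.60 and 4.74 FPKM in control, 6.98, 9.79 and 17.2 after cold once, and 19.1, 11.5 and 18.0 after repeated cold. Both cold groups lay above control and overlapped each other. The log2 changes were 1.32 ± 0.30 (adjusted p = 0.00551) and 1.86 ± 0.30 (adjusted p = 0.00143, limma). Of its exon bases, 27.3% lie within a gene on the opposite strand, and since strandedness is not given in the sources used here, reads of the 2 genes cannot be told apart there.

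PUB22 (AT3G52450, chr3:19440617-19442427, minus strand) shifted less, from 2.595, 4.68 and 4.23 FPKM to 5.06, 6.07 and 7.44 after cold once and 6.95, 5.93 and 6.22 after repeated cold. The groups were separate from control by a narrow margin. Its log2 changes of 0.59 ± 0.19 (adjusted p = 0.0251) and 0.63 ± 0.19 (adjusted p = 0.0239) passed limma's test. Both calls were lost on leaving out library 1 of the controls, the lowest library (adjusted p = 0.0773 and 0.0686). The first was also lost on leaving out library 2 or 3 of cold once (0.0547 and 0.0928, adjusted p) and the second on leaving out library 1 or 3 of repeated cold (0.0681 and 0.0550, adjusted p).

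PUB24 (AT3G11840, chr3:3736578-3738208, minus strand) went the other way. It stood at 13.2, 14.1 and 11.1 FPKM in control, 5.205, 2.14 and 4.09 after cold once, and 8.83, 9.13 and 4.25 after repeated cold. Both cold groups lay wholly below control, and repeated cold replicate 3 fell within the range of cold once. The fall after cold once, -1.57 ± 0.30 on the log2 scale, passed the test (adjusted p = 0.00204), and the -0.77 ± 0.30 after repeated cold did not (adjusted p = 0.0665, limma). That second value passed under 4 of the 20 alternatives, with an adjusted p between 0.0362 and 0.201 over all of them.

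PUB44 (AT1G20780, chr1:7217021-7220842, plus strand), also called SAUL1, keeps leaves from early senescence. It was at 7.53, 5.61 and 6.13 FPKM in control, 15.4, 6.52 and 10.6 after cold once, and 15.7, 10.7 and 12.3 after repeated cold. Cold once replicate 2 lay within the control range, and no repeated-cold library did. The change after repeated cold, 0.90 ± 0.26, passed (adjusted p = 0.0223), and that after cold once, 0.61 ± 0.26, did not (adjusted p = 0.0742, limma), though it passed under 4 of the 20 alternatives, with a lowest adjusted p of 0.00751. The call after repeated cold was lost with the floral score as a covariate (adjusted p = 0.0986) and on leaving out library 2 or 3 of the controls or library 1 or 3 of repeated cold (adjusted p = 0.0682, 0.0641, 0.0705 and 0.0511).

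PUB54 (AT1G01680, chr1:246262-248440, minus strand) varied widely within groups. Its values were 7.10, 0.798 and 4.18 FPKM in control, 4.55, 1.44 and 4.18 after cold once, and 20.7, 12.5 and 7.02 after repeated cold. Control replicate 1 was above repeated cold replicate 3, so these groups overlapped. The log2 change after repeated cold was 1.65 ± 0.57 (adjusted p = 0.0448), beside -0.03 ± 0.57 after cold once (adjusted p = 0.964, limma). That call did not hold under 10 of the 20 alternatives, among them the floral covariate (adjusted p = 0.143) and the fits that left out library 2 or 3 of the controls or library 1 or 3 of cold once or library 1 or 2 of repeated cold (adjusted p = 0.127, 0.0739, 0.0514, 0.0580, 0.134 and 0.0897). PUB56, the next gene on chromosome 1, did not share this pattern of means, with 1.46 ± 0.197, 0.610 ± 0.126 and 1.03 ± 0.423 FPKM.

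The remaining members that rose did so in 1 of the comparisons with control. PUB9 went from 39.7 ± 1.21 to 58.6 ± 1.35 FPKM after cold once, which is a log2 step of 0.55 ± 0.08 (adjusted p = 5.87e-04, limma), and stood at 44.9 ± 2.48 FPKM after repeated cold (0.17 ± 0.08, adjusted p = 0.129). PUB45 was at 5.54 ± 0.561, 8.63 ± 2.24 and 6.79 ± 0.455 FPKM, with its call after cold once at an adjusted p of 0.0188. PUB27 was at 10.13 ± 1.74, 15.3 ± 3.20 and 18.6 ± 6.51 FPKM, with its call after repeated cold at an adjusted p of 0.0415 and a repeated-cold library within the control range. The PUB45 call was lost with the floral covariate (adjusted p = 0.112) and on leaving out library 2 or 3 of the controls (0.0593 and 0.0538). The change of PUB27 after cold once was not called, but passed under 4 of the 20 alternatives (lowest adjusted p = 0.0276). Its call after repeated cold was lost with no filter (adjusted p = 0.0656), with only the 2 groups compared in the fit (0.0546), and on leaving out library 1 or 3 of the controls or library 2 of cold once or library 1 or 2 of repeated cold (adjusted p = 0.116, 0.114, 0.0535, 0.114 and 0.121).

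**Figure D3:**
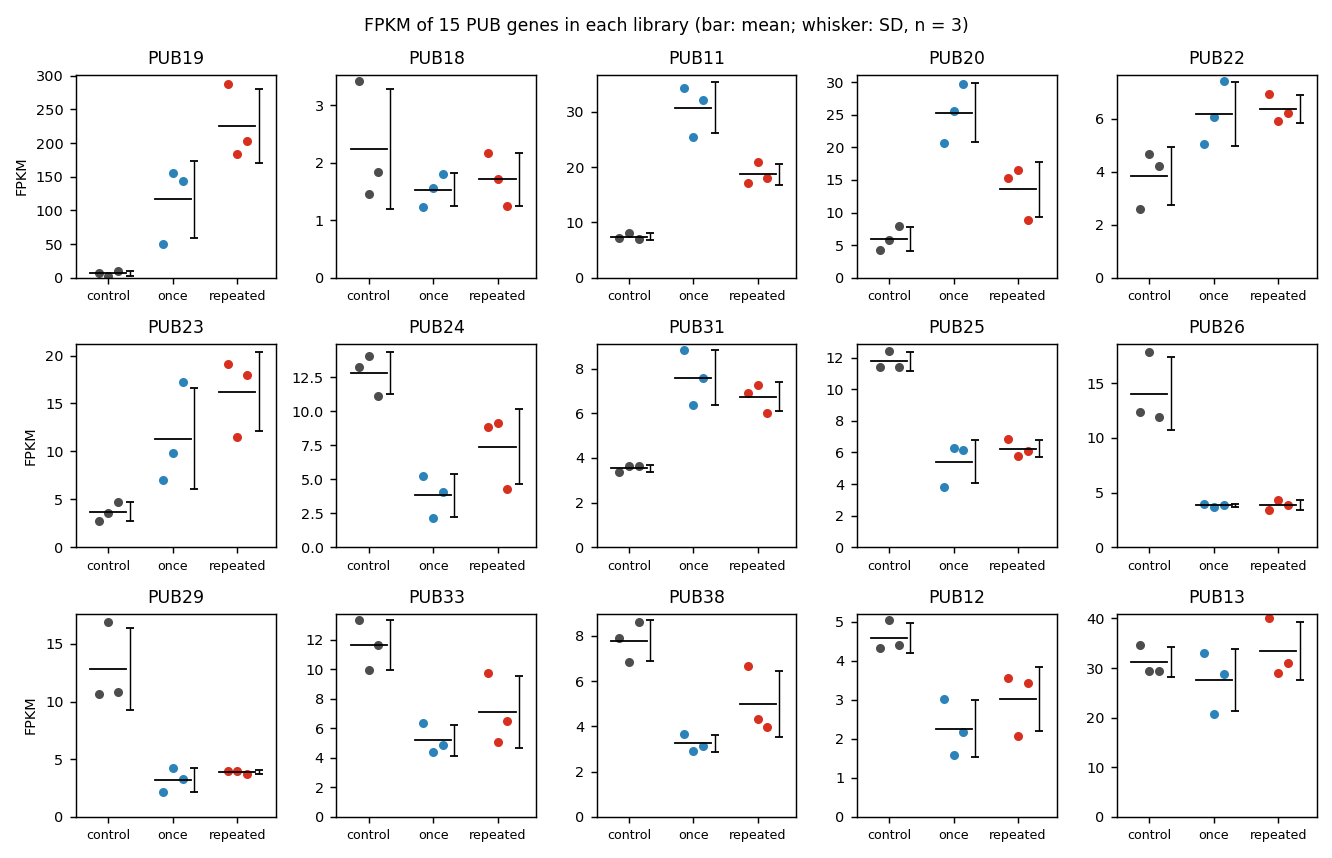
FPKM of 15 PUB genes in each of the 9 libraries (points; grey control, blue cold once, red repeated cold), with the group mean as a horizontal bar and the SD as a whisker, n = 3, each panel with its own vertical scale. PUB19 climbs from at most 10.2 FPKM in control to at least 184 FPKM after repeated cold, PUB11 and PUB20 are highest after cold once, and PUB25, PUB26 and PUB29 lie below every control library in both cold groups.

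PUB25 and PUB26, the pair that ubiquitinates MYB15 and is phosphorylated by the kinase OST1 in the cold, both fell in transcript level. PUB26 (AT1G49780, chr1:18428788-18430497, minus strand) was at 12.4, 17.9 and 11.9 FPKM in control, 3.97, 3.65 and 3.88 after cold once, and 3.44, 4.33 and 3.86 after repeated cold. All 6 cold libraries lay in a narrow band far below the control libraries. The log2 changes were -1.62 ± 0.15 (adjusted p = 4.11e-05) and -1.61 ± 0.15 (adjusted p = 7.16e-05, limma), and the difference between the cold groups was 0.01 ± 0.15.

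PUB25 (AT3G19380, chr3:6714133-6716178, minus strand) stood at 11.4, 12.4 and 11.4 FPKM in control, 3.83, 6.28 and 6.13 after cold once, and 6.85, 5.79 and 6.07 after repeated cold. Again no cold library reached the control range, and cold once replicate 1 was the lowest. Its log2 changes were -1.02 ± 0.16 (adjusted p = 6.75e-04) and -0.82 ± 0.16 (adjusted p = 0.00329, limma). Both genes kept both calls under all 20 alternatives in which they were fitted. Their listed substrate MYB15 was at 2.26 ± 0.558 FPKM in control, 5.10 ± 3.45 after cold once and 7.50 ± 5.09 after repeated cold, and did not pass the test (adjusted p = 0.216 and 0.0661). OST1 rose, from 7.33 ± 0.622 FPKM to 12.1 ± 1.82 and 9.71 ± 1.01, with log2 changes of 0.65 ± 0.13 (adjusted p = 0.00246) and 0.36 ± 0.13 (adjusted p = 0.0475).

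PUB29 (AT3G18710, chr3:6434082-6436046, minus strand) had the lowest log2 change of the family after cold once. Its values were 10.7, 16.9 and 10.9 FPKM in control, 2.12, 4.20 and 3.30 after cold once, and 3.94, 3.96 and 3.67 after repeated cold. Control replicate 2 was the highest library for PUB29, as it was for PUB26. The log2 changes were -1.72 ± 0.21 (adjusted p = 1.98e-04) and -1.48 ± 0.21 (adjusted p = 7.26e-04, limma), with no overlap between control and either cold group.

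PUB38 (AT5G65200, chr5:26048065-26050046, minus strand) went from 7.91, 6.84 and 8.63 FPKM to 3.68, 2.91 and 3.15 after cold once and 6.68, 4.32 and 3.98 after repeated cold. Repeated cold replicate 1 came near the lowest control library without reaching it. The changes were -1.05 ± 0.17 (adjusted p = 8.79e-04) and -0.58 ± 0.17 (adjusted p = 0.0249, limma) on the log2 scale. The second call was lost on leaving out library 1 or 3 of the controls or library 2 or 3 of repeated cold (adjusted p = 0.0690, 0.0870, 0.0671 and 0.0843).

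PUB33 (AT2G45910, chr2:18894030-18898528, plus strand), 1 of the 3 members listed with a kinase domain, was at 13.3, 9.92 and 11.6 FPKM in control, 6.33, 4.36 and 4.84 after cold once, and 9.77, 5.04 and 6.51 after repeated cold. Here too repeated cold replicate 1 nearly touched the control range. The changes were -1.03 ± 0.21 (adjusted p = 0.00319) and -0.67 ± 0.21 (adjusted p = 0.0328, limma). The second call was lost under median-of-ratios scaling (adjusted p = 0.0520), with no filter (0.0541), and on leaving out library 1 or 3 of the controls or library 2 or 3 of repeated cold (0.107, 0.0819, 0.0904 and 0.0862). PUB32, also listed with a kinase domain, was at 6.51 ± 1.44, 6.19 ± 0.795 and 8.64 ± 1.78 FPKM and did not pass in either comparison, and PUB35, the third, had at most 20 reads in a library. PUB37, the gene next to PUB33 on chromosome 2, was at 2.81 ± 0.560, 3.38 ± 0.523 and 4.68 ± 1.93 FPKM and did not pass either.

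PUB12 and PUB13 ubiquitinate the flagellin receptor FLS2. PUB13 (AT3G46510, chr3:17123731-17126897, minus strand) was at 34.7, 29.4 and 29.3 FPKM in control, 33.1, 20.8 and 28.9 after cold once, and 40.0, 29.1 and 31.1 after repeated cold. The groups overlapped, and neither change passed the test (-0.19 ± 0.18 with adjusted p = 0.397 and 0.09 ± 0.18 with adjusted p = 0.726, limma). PUB12 (AT2G28830, chr2:12368220-12370420, minus strand), at a lower level, gave 4.32, 5.04 and 4.41 FPKM in control, 3.03, 1.58 and 2.17 after cold once, and 3.55, 2.08 and 3.43 after repeated cold. It fell after cold once (-0.80 ± 0.20, adjusted p = 0.00775), and -0.49 ± 0.20 after repeated cold did not pass (adjusted p = 0.0730). FLS2 itself fell after cold once, from 8.58 ± 1.03 to 5.18 ± 1.81 FPKM (-0.67 ± 0.22, adjusted p = 0.0272), and was at 9.56 ± 2.17 FPKM after repeated cold.

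PUB39, PUB40 and PUB41 form a group that targets the brassinosteroid factor BZR1. PUB40 fell from 4.04 ± 0.501 to 1.86 ± 0.124 and 2.74 ± 0.0739 FPKM, with log2 changes of -0.81 ± 0.11 (adjusted p = 3.06e-04) and -0.42 ± 0.11 (adjusted p = 0.0135, limma). PUB41 fell from 11.6 ± 0.370 to 7.30 ± 0.191 and 8.58 ± 1.04 FPKM, with changes of -0.60 ± 0.10 (adjusted p = 0.00103) and -0.40 ± 0.10 (adjusted p = 0.0121). PUB39 was at 15.4 ± 0.466 FPKM in control, 13.1 ± 1.46 after cold once and between 13.7 and 16.4 after repeated cold, and passed in neither. The PUB40 call after repeated cold was lost under quantile normalization (adjusted p = 0.0803) and on leaving out library 2 of the controls (0.0507).

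The other members that fell changed by less than a log2 unit. PUB8 went from 12.1 ± 1.39 to 6.41 ± 0.422 and 8.41 ± 0.991 FPKM (-0.82 ± 0.12 and -0.48 ± 0.12, adjusted p = 4.68e-04 and 0.0112, limma). PUB63 went from 3.56 ± 0.399 to 1.48 ± 0.140 and 2.17 ± 0.155 FPKM (-0.88 ± 0.11 and -0.52 ± 0.11, adjusted p = 2.45e-04 and 0.00587), with 33.7% of its exon bases inside another gene. PUB62 fell after cold once, from 12.2 ± 1.02 to 7.93 ± 0.251 FPKM (-0.57 ± 0.10, adjusted p = 0.00164), and was at 10.6 ± 1.01 FPKM after repeated cold (adjusted p = 0.177). PUB14 fell in the same comparison, from 12.1 ± 0.644 to 7.63 ± 1.27 FPKM (-0.62 ± 0.14, adjusted p = 0.00617).

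The calls of the remaining members that fell held under fewer settings. PUB10, which targets the jasmonate factor MYC2, stood at 11.3 ± 1.08, 8.95 ± 0.804 and 8.70 ± 0.416 FPKM (-0.30 ± 0.10 and -0.33 ± 0.10, adjusted p = 0.0367 and 0.0306, limma). Its calls were lost under 7 and 8 of the 20 alternatives, both scalings, the floral covariate and the fits that left out library 2 or 3 of the controls included, with an adjusted p up to 0.517. PUB16 stood at 1.85 ± 0.118, 1.15 ± 0.262 and 1.06 ± 0.338 FPKM, and its calls (adjusted p = 0.0484 and 0.0351) were lost under 11 and 8 of 19, among them the fit without any 1 of the control libraries. PUB3 fell in cold once from 9.03 ± 1.07 to 5.93 ± 0.706 FPKM (adjusted p = 0.0217), and that call was lost under both scalings and on leaving out library 1 or 3 of the controls or library 2 or 3 of cold once (adjusted p from 0.0570 to 0.104). PUB56 fell in cold once by 0.61 ± 0.17 on the log2 scale (adjusted p = 0.0153), a call lost with the floral covariate (0.0926), under quantile normalization (0.0616) and on leaving out library 2 of the controls or library 3 of cold once (0.0523 and 0.0551). That fall rested on few reads, 47 to 57 in a control library and 16 to 24 in a cold-once library.

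Members that passed in neither comparison with control were PUB1, PUB2, PUB5, PUB6, PUB7, PUB13, PUB17, PUB18, PUB28, PUB32, PUB37 and PUB39. PUB2 had the largest standard error of the log2 change among them, 0.38, at 5.42 ± 1.87, 3.82 ± 2.29 and 6.19 ± 2.35 FPKM. The group means of PUB17 were close to each other, at 27.4 ± 2.77, 30.8 ± 2.12 and 30.2 ± 4.93 FPKM. PUB1 was at 18.2 ± 3.50, 16.1 ± 1.66 and 17.3 ± 3.88 FPKM, and its log2 changes were -0.15 ± 0.19 and -0.07 ± 0.19.

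**Figure D4:**
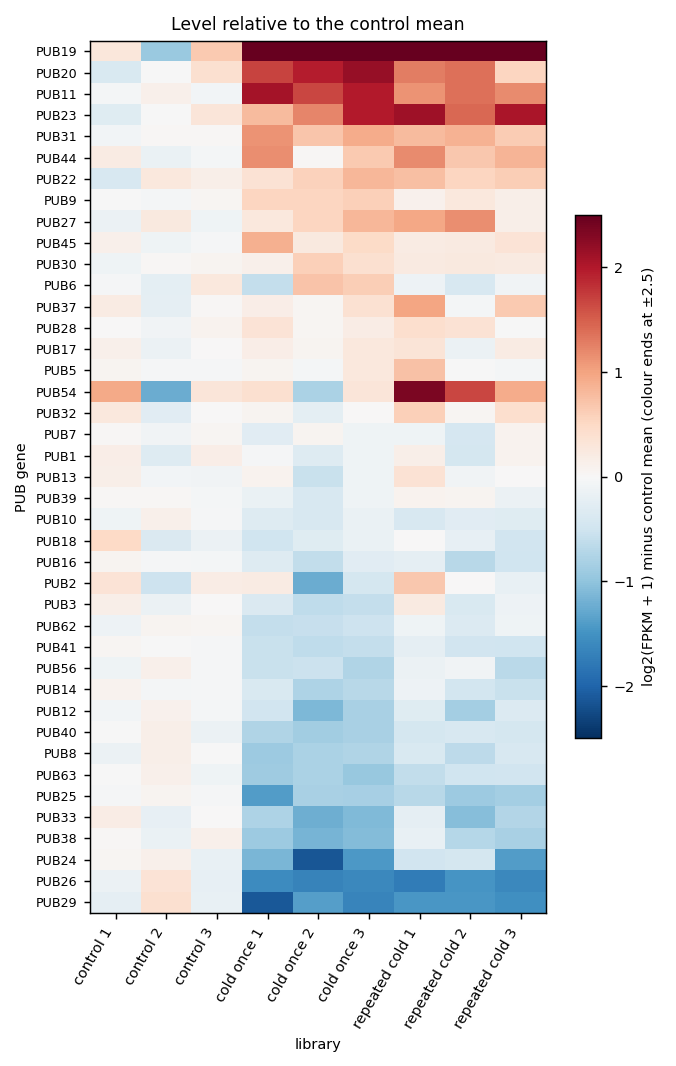
Level of each tested PUB gene in each library as log2(FPKM + 1) minus the mean of the 3 control libraries, with genes ordered by their change after cold once; colours end at 2.5 in either direction, and PUB19 exceeds that in all 6 cold libraries. The upper rows are red and the lower rows blue across the cold libraries. Several genes, PUB54, PUB2 and PUB6 among them, differ in sign between libraries of 1 group.

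Repeated cold against cold once sets plants of day 4 beside plants of day 1, so further cycles, day and plant age cannot be told apart in it. Only PUB11 was called among 41 members (2.44%), beside 1.27% of all genes, 0.738% higher and 0.536% lower. PUB11 was lower after repeated cold by -0.68 ± 0.13 on the log2 scale (adjusted p = 0.0452, limma), from 30.7 ± 4.61 to 18.7 ± 1.96 FPKM, and still above control. That call held under 8 of the 20 alternatives, with an adjusted p between 0.0332 and 0.168. It was lost with the floral covariate (adjusted p = 0.0552) and without any 1 of the libraries other than cold once replicate 2. The 40 members not called had log2 changes between -0.89 (PUB20, adjusted p = 0.113) and 1.69 (PUB54, adjusted p = 0.152). The median was 0.23 over members and 0.06 over all genes.

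The 2 cold groups did not overlap in 11 of the 41 tested members, beside 23.8% of all tested genes, and the direction varied. PUB9 was at 57.7 to 60.2 FPKM after cold once and 42.9 to 47.7 after repeated cold (-0.38 ± 0.08, adjusted p = 0.0641, limma), and with median-of-ratios scaling it was called as well. PUB20 was lower after repeated cold, and PUB19 and PUB54 were higher. The other 6 beside PUB11 were PUB8, PUB38, PUB40, PUB41, PUB62 and PUB63, each with a lower mean than control in cold once and a mean between the 2 in repeated cold, at log2 differences from 0.20 to 0.48, none of them called.

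Upstream letters can be read beside these calls as a description. Of all windows of the genome, 50.2% held TTGAC, 25.8% ACGTG and 14.2% CCGAC. Among windows of the family the shares were 72%, 32% and 20%. TTGAC occurred in all 9 windows of the members that rose after cold once, in 11 of the 17 that fell and in 11 of the 15 not called. ACGTG occurred in 5 of the 9, namely PUB9, PUB19, PUB23, PUB30 and PUB31, in 3 of the 17 and in 4 of the 15. CCGAC occurred in 3 of the 9, namely PUB9, PUB11 and PUB19, in PUB33 alone among the 17 and in 5 of the 15.

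The rest of the ubiquitin pathway was read in lists chosen for their roles. Of 35 tested genes for E1 and E2 enzymes, which activate ubiquitin and hand it to the ligases, 2 rose and 20 fell after cold once and 1 rose and 18 fell after repeated cold. The shares that fell were 57.1% and 51.4%, beside 33.6% and 24.9% of all genes. Their median log2 changes were -0.35 and -0.32, beside -0.16 and -0.10 over all genes. Median-of-ratios scaling gave 2 higher and 12 lower, then 2 higher and 11 lower. Over all genes that scaling gave 25.6% higher and 25% lower, then 19.6% and 18.9%. UBC5 fell from 53.0 ± 9.76 to 11.1 ± 0.481 and 18.1 ± 0.996 FPKM, and UBC8 from 280 ± 18.3 to 106 ± 8.40 and 117 ± 3.33 FPKM.

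Of the 5 polyubiquitin genes, which supply ubiquitin itself, 1 rose and 3 fell in each comparison with control. Over all genes 18.7% rose and 33.6% fell after cold once, and 14.6% and 24.9% after repeated cold. A list of 5 genes is too short to set against these shares. UBQ11 rose from 290 ± 27.7 to 824 ± 154 and 763 ± 55.2 FPKM (log2 changes 1.49 ± 0.15 and 1.40 ± 0.15, adjusted p = 6.74e-05 and 1.63e-04, limma). Among 50 proteasome subunit genes, 0 rose and 8 fell after cold once, and 0 rose and 9 fell after repeated cold, with medians of -0.11 and -0.20 beside -0.16 and -0.10 over all genes. The shares that fell, 16% and 18%, lay under the 33.6% and 24.9% of all genes. Under median-of-ratios scaling 2 rose and 4 fell, then 1 rose and 4 fell, while over all genes 25.6% rose and 25% fell, then 19.6% and 18.9%.

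Among 17 tested genes for reported targets and partners of PUB ligases, 1 rose and 6 fell after cold once, and 1 rose and 2 fell after repeated cold. The shares that fell were 35.3% and 11.8%, beside 33.6% and 24.9% of all genes. OST1 was the one that rose in each. LYK5, a chitin receptor kinase, fell from 10.7 ± 2.64 to 3.63 ± 0.750 and 4.55 ± 2.28 FPKM (-1.33 ± 0.28 and -1.13 ± 0.28, adjusted p = 0.00359 and 0.0114, limma). EXO70B1, an exocyst subunit that PUB18 targets, was at 45.3 ± 2.91, 34.6 ± 5.90 and 27.1 ± 5.45 FPKM and passed after repeated cold (-0.74 ± 0.16, adjusted p = 0.00607). ICE1, an activator of CBF genes, was at 19.4 ± 0.681, 23.0 ± 1.102 and 20.8 ± 1.76 FPKM and did not pass.

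Of 3 U-box genes that carry other names, MAC3A and MAC3B, a pair of splicing-complex ligases, were called in opposite directions after cold once. MAC3A rose after cold once from 19.7 ± 1.26 to 26.9 ± 1.98 FPKM (0.43 ± 0.12, adjusted p = 0.0159, limma), and was at 23.6 ± 3.52 FPKM after repeated cold (0.24 ± 0.12, adjusted p = 0.150, not called). MAC3B fell from 44.3 ± 1.14 to 32.1 ± 1.61 and 33.7 ± 3.67 FPKM (-0.45 ± 0.10 and -0.39 ± 0.10, adjusted p = 0.00473 and 0.0134). CHIP, a co-chaperone ligase, was at 14.3 ± 0.674, 11.8 ± 1.15 and 12.3 ± 1.00 FPKM and passed in neither comparison.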

How the data were processed

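RNA was measured in 9 libraries, and groups were taken from the sample labels. Libraries were made with the SMARTER mRNA-Seq kit from 0.5 µg of RNA (Qiagen RNeasy), per the labels. The authors deposited FPKM values, 1 column per library, for 25320 genes. Per the submitters' processing notes the tools included TopHat, Cufflinks and Cuffdiff, whose roles and versions are not listed; the build and strandedness are not given in the sources used here. Of 25099 loci matched to TAIR10.1, 25094 (99.98%) have identical ends.

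FPKM times exon length fell on whole reads in all libraries for 24959 genes (98.6%, tolerance 0.01 read), which gave the depth of 17.98 to 21.49 M reads. An FPKM of 0 is compatible with as many as 3 reads, 0.140 to 0.167 FPKM at 1 kb, for counting error only. Genes at FPKM 1 or more in at least 3 libraries (17740) entered 1 model over all 9 libraries with limma 3.58.1 in R 4.3.3, on log2(FPKM + 1), with eBayes, a mean trend and Benjamini-Hochberg adjustment over all genes tested; the threshold was 0.05. The scripts were tested on simulated data. Log2 changes are on that scale and understate changes of low genes; folds are ratios of mean FPKM. A planned edgeR fit was not run because the unit is FPKM; voom on the recovered reads was added after seeing the data, and called 9270, 6928 and 196 genes in the 3 comparisons, against 9278, 7013 and 226. Other alternatives varied the pseudocount (0.1, 5), filter, scaling, prior, samples, replicate block and floral score, or left out 1 library.

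Named members were those called against control with 1 of the 10 largest log2 changes, those called between the cold groups, and PUB12, PUB13, PUB18, PUB19 and PUB22 to PUB26. Proteasome genes were matched by name (69) and trimmed by description to 51 after unrelated genes were seen among them. Members and lists were chosen with earlier results of these data known. Python 3.11.15 with pandas 2.3.3, numpy 2.4.6 and matplotlib 3.10.9 made the tables and figures.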

Additional observations from a re-analysis of the deposited data

Results flagged for a closer look

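PUB11 changed against control by a different amount after 1 cycle than after 4 cycles. Its log2 change was 1.91 ± 0.13 in cold once and 1.23 ± 0.13 in repeated cold, and the test of the difference itself gave -0.68 ± 0.13 (adjusted p = 0.0452, limma). All 3 repeated-cold libraries (17.1 to 20.9 FPKM) lay below all 3 cold-once libraries (25.5 to 34.4 FPKM). The adjusted p ranged from 0.0332 to 0.168 over the alternatives. The difference was not called under 12 of the 20 alternatives. Among these were the floral score as covariate (-0.69, adjusted p = 0.0552, limma) and the fit of only the 2 groups compared (adjusted p = 0.128). Leaving out any 1 library other than cold once replicate 2 also lost the call.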

How the results depend on the processing

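No called change of a PUB gene reversed under the 20 alternatives. After cold once, 19 of the 26 calls held under every alternative in which the gene was tested, and after repeated cold 11 of the 20. For repeated cold against cold once, the count of 1 was 0 with no filter, with no mean trend, in the fit of only the 2 groups compared and with the floral score as covariate, was 2 with median-of-ratios scaling, and ranged from 0 to 1 when each library was left out. The share of all genes called, 1.27% in the main fit, was then 0.442%, 1.17%, 0.0282%, 1.3% and 2.07% in that order. It ranged from 0.0962% to 1.19% when each library was left out. For repeated cold against control, leaving out each library gave 13 to 20 called members, 13 without control replicate 3. The share of all genes called, 39.5% in the main fit, was then 30% to 39.6%, and 30% without control replicate 3. Over all genes, the 226 calls of repeated cold against cold once ranged from 5, with only these groups in the fit, to 704, with the replicate block. The causes were not tested. Of the changes not called, 4 of 15 after cold once (PUB6, PUB17, PUB27 and PUB44), 7 of 21 after repeated cold (PUB9, PUB12, PUB14, PUB24, PUB30, PUB32 and PUB37) and 1 of 40 between the cold groups (PUB9) were called under at least 1 alternative. Same-numbered libraries gave residual correlations over 0.1 in all 6 pairs of numbers 1 and 2 (0.10 to 0.46) and of 0.03, 0.04 and -0.11 in the 3 pairs of number 3. Pairing was to be taken up only if every pair was over 0.1, and the labels name no shared source, so the block stayed an alternative, although 6 of 9 libraries correlated best with their own number. With the replicate block the counts of called members were 27, 23 and 1 of 41, and 29 by the F-test. The shares of all genes called also rose, to 56.7%, 45% and 3.97%, and 55.3% by the F-test. PUB44 after cold once (adjusted p = 0.00973, limma) and PUB14, PUB32 and PUB37 after repeated cold (0.0164, 0.0165 and 0.0408) were called in addition. Members with few reads, such as PUB28 (16 to 34 reads), limit what depth can show, and the planned edgeR fit was not run.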
